A study of Mus musculus with 6 samples.

Results

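The interleukin 1 system was read in mouse skin keratinocytes through 7 genes: the ligands Il1a, Il1b and Il18, the signalling receptor Il1r1 and its partner Il1rap, the decoy receptor Il1r2 and the receptor antagonist Il1rn. They were taken by gene symbol from the array annotation and were represented by 8 probe sets, among 8251 named genes and 12422 probe sets in all. The keratinocytes came from the skin of mice with a K15-EGFP transgene, in which a keratin 15 promoter, active in the bulge of the hair follicle, drives enhanced green fluorescent protein. Cells were sorted by flow cytometry into an EGFP-high group and an EGFP-negative group, both positive for α6 integrin and both from mice that carry the transgene, with 3 samples and 3 arrays in each. Age, sex, strain background and whether animals were pooled are not given in the labels, and the labels do not say that replicates came from separate animals, so the spread between samples may be partly technical. The comparison asks how the bulge-enriched cells differ from the other α6 integrin positive cells of the same skin.

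Interleukin 1 is an alarm signal of epithelia. Interleukin 1α and 1β bind the type 1 receptor, which recruits the accessory protein and passes the signal through the adaptor MyD88 and the IRAK kinases to NF-κB and the stress kinases. The pathway is restrained outside the cell by the antagonist, which occupies the receptor without signalling, and by the type 2 receptor, which binds ligand but lacks the intracellular signalling domain. In skin, keratinocytes are known to store interleukin 1α and to release it on injury.

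The arrays gave 1 deposited intensity per probe set on a linear scale, with array medians of 69.55 to 76.05. As a reading of the background, 19 control probe sets for bacterial and yeast genes with no mouse target had medians of 9.6 to 16.5 per array, and their 95th percentile was 25.5 to 42.2. Of 12 measured basal keratinocyte markers, 9 were above that percentile on all arrays, among them Col17a1, Perp and Trp63. Krt14 and Krt15 were below it on all arrays and Krt5 on 5, although both groups are labelled keratinocytes, so a probe set at the control level does not show that its gene was silent. Itga6, which encodes the α6 integrin used in the sort of both groups, was above it on all arrays and fell in EGFP-high (492 ± 90 against 1199.8 ± 162 (SD, n = 3 each), log2 -1.26, SE 0.18, limma adjusted p = 0.00449).

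The 7 genes were selected on this same comparison, with their EGFP-high minus EGFP-negative differences already known. Those differences are therefore given as descriptions, with no test, and their calls support nothing further. Differences are on the log2(intensity + 19.3) scale as EGFP-high minus EGFP-negative, with the standard error (SE) from a limma fit across all 7453 tested probe sets.

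Il1r2, the decoy receptor, and Il1rn, the antagonist, were lower in EGFP-high cells, and the signalling receptor Il1r1 lay lower by less. For each of these 3 genes 1 promoter window is printed, because they are the members that read above the control level and lay lower together. Il1r2 has 1 window in the table, Il1rn has 3 and Il1r1 has 2, and for the last 2 genes the window shown was picked with its matches known. The Il1r1 window shown is the one that holds a match. All 3 Il1rn windows hold a match, and the one shown alone holds both patterns described below. The printed windows are the RefSeq windows of the GRCm38.p6 table, from 250 bases before to 50 bases after a transcription start, 5′ to 3′ on the gene's strand. The table held such windows for all 7 members, 10 in all. Capitals mark matches, on either strand, to a κB-type pattern (GGG, then 3 bases of any kind, then TTCC) or to TGANTCA, an AP-1 pattern. These factors act downstream of interleukin 1.
Il1r2, chr1:40085843-40086142, plus strand: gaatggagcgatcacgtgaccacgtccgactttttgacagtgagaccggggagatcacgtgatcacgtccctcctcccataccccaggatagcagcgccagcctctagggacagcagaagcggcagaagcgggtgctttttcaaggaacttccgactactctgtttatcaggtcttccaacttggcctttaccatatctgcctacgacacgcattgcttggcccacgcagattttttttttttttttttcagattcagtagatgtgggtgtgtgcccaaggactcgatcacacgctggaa
Il1rn, chr2:24336610-24336909, plus strand: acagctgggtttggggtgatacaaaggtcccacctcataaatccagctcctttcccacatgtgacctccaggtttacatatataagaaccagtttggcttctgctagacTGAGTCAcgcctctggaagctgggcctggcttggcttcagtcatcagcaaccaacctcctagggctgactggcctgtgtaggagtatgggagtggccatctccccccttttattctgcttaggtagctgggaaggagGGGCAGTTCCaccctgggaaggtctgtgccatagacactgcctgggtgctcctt
Il1r1, chr1:40266336-40266635, plus strand: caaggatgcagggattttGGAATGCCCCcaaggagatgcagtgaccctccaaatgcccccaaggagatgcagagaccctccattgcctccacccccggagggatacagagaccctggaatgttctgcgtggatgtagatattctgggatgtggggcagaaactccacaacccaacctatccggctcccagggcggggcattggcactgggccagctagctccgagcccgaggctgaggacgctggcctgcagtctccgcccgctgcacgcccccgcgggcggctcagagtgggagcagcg

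The Il1r2 window held neither pattern. The Il1rn window shown held the AP-1 match TGAGTCA at positions -141 to -135, counted from 0 at the start site, and the κB-type match GGGCAGTTCC at -4 to 5. The Il1r1 window shown held a κB-type match on the other strand at -232 to -223, and the other Il1r1 window, at chr1:40224830-40225129, held neither pattern. The 2 patterns did not overlap in these windows. Among the 32851 windows of the table, 5.56% held the κB-type pattern and 7.81% the AP-1 pattern, against 4 and 2 of the 10 windows of the members. Of those 4, 3 belong to Il1rn, and 2 of these 3 overlap and share 1 match. A match is a run of letters and not a measured binding site. Il1r2 and Il1r1 are close neighbours on chromosome 1, with 1 gene and no protein-coding gene between them in the RefSeq table.

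Il1r2 had the largest difference of the 7 genes. Its probe set 102658_at read 176.4, 100.4 and 63.8 in EGFP-high replicates 1, 2 and 3, and 924.9, 870.7 and 872.0 in EGFP-negative replicates 1, 2 and 3. All 3 EGFP-high arrays were far below all 3 EGFP-negative arrays, and the EGFP-negative arrays were close to each other. The means were 114 ± 57.4 and 889 ± 30.9 (SD, n = 3 each), a ratio of 7.83, and the log2 difference was -2.86 (SE 0.28).

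The other Il1r2 probe set, 161689_f_at, read 133.3, 54.2 and 46.7 in EGFP-high and 765.9, 690.9 and 717.9 in EGFP-negative cells. The groups again did not overlap. The log2 difference was -3.04 (SE 0.29), so both probe sets of the decoy receptor gave a difference of like size. The f in its name marks probes that may also bind transcripts of similar sequence, and no source accession is listed for it. In the order of all 7453 tested differences, from the lowest, the 2 probe sets stood at 2 and 3.

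Il1rn, which encodes the receptor antagonist, read 174.2, 61.5 and 103.3 in EGFP-high and 298.5, 284.7 and 377.2 in EGFP-negative cells. The lowest EGFP-negative array was above the highest EGFP-high array. The means were 113 ± 57 and 320 ± 49.9 (SD, n = 3 each), a ratio of 2.83, and the log2 difference was -1.44 (SE 0.29). Il1rn was past the threshold with all 6 arrays and fell short of it without any 1 of 5 of them, EGFP-high replicate 1 being the exception. Its difference was then -1.13 and -1.43 with EGFP-high array 2 or 3 left out, and -1.48, -1.51 and -1.32 with EGFP-negative array 1, 2 or 3 left out.

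Il1r1, the receptor that passes the signal into the cell, read 121.0, 57.4 and 96.3 in EGFP-high and 136.2, 178.6 and 169.7 in EGFP-negative cells. The groups did not overlap, but EGFP-high replicate 1 and EGFP-negative replicate 1 were separated by little. The means were 91.6 ± 32.1 and 161 ± 22.4 (SD, n = 3 each), a ratio of 1.76, and the log2 difference was -0.74 (SE 0.24). Il1r1 did not pass the threshold.

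**Figure D1:**
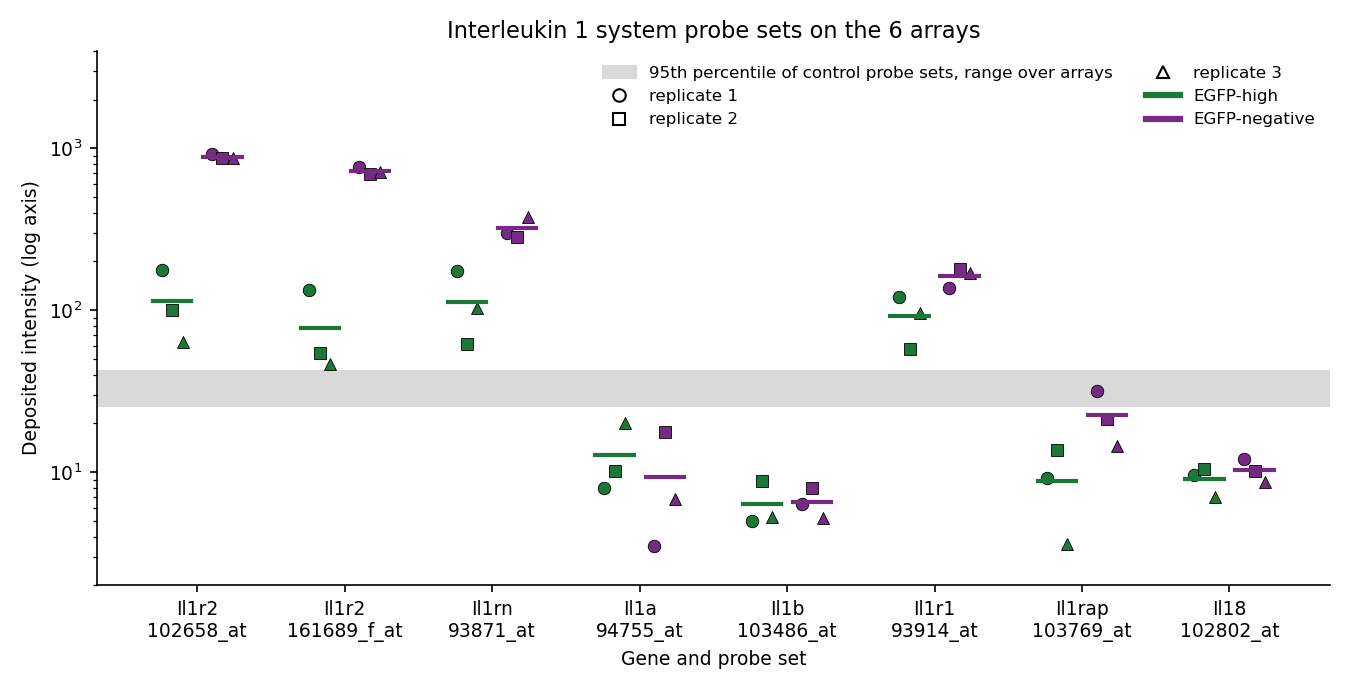
Deposited intensity (log axis) of the 8 probe sets of the 7 genes on the 6 arrays; symbols mark the replicate, bars the group means, and the grey band the range over arrays of the 95th percentile of the 19 control probe sets. Both Il1r2 probe sets, Il1rn and Il1r1 lie above the band with EGFP-high arrays below EGFP-negative arrays, while Il1a, Il1b, Il1rap and Il18 stay below their own array's control percentile on every array.

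The ligands read at the control level in both groups. Il1a, the agonist that keratinocytes store, read 8.0, 10.1 and 20.2 in EGFP-high and 3.5, 17.6 and 6.8 in EGFP-negative cells. Il1b, the agonist made chiefly by activated myeloid cells, read 5.0, 8.8 and 5.3 against 6.4, 8.0 and 5.2. Il18, a related cytokine of the family, read 9.6, 10.5 and 7.0 against 12.1, 10.2 and 8.7. For each of the 3 ligands the groups overlapped, and no array was above the control 95th percentile, so the arrays give no measure of a difference in ligand expression.

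Il1rap, the accessory chain of the signalling receptor, was also below the control 95th percentile on every array. It read 9.2, 13.7 and 3.6 in EGFP-high and 31.5, 21.3 and 14.5 in EGFP-negative cells. The groups did not overlap, by a margin of under 1 intensity unit, between 13.7 and 14.5. Its log2 difference of -0.56 lies in a range where the size depends on the pseudocount, from -0.21 with a pseudocount 4 times as large to -1.02 with 25% of it. These 4 genes were under the filter on low values and were not part of the fit.

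In counts, 4 of the 8 probe sets, for 3 of the 7 genes, passed the filter. Of these 4, 3 were past the adjusted p threshold of 0.05 and lower in EGFP-high, where 2.17% of all tested probe sets were, and 0 were past it and higher, where 3.02% were. All 4 had groups that did not overlap with EGFP-high below, where 22.7% of tested probe sets did not overlap and 11.1% did so with EGFP-high below. With the replicate block the same 3 were past the threshold, where 5.31% of all tested probe sets were lower and 5.13% higher. Because this contrast was in view when the genes were chosen, nothing is read from these counts.

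**Figure D2:**
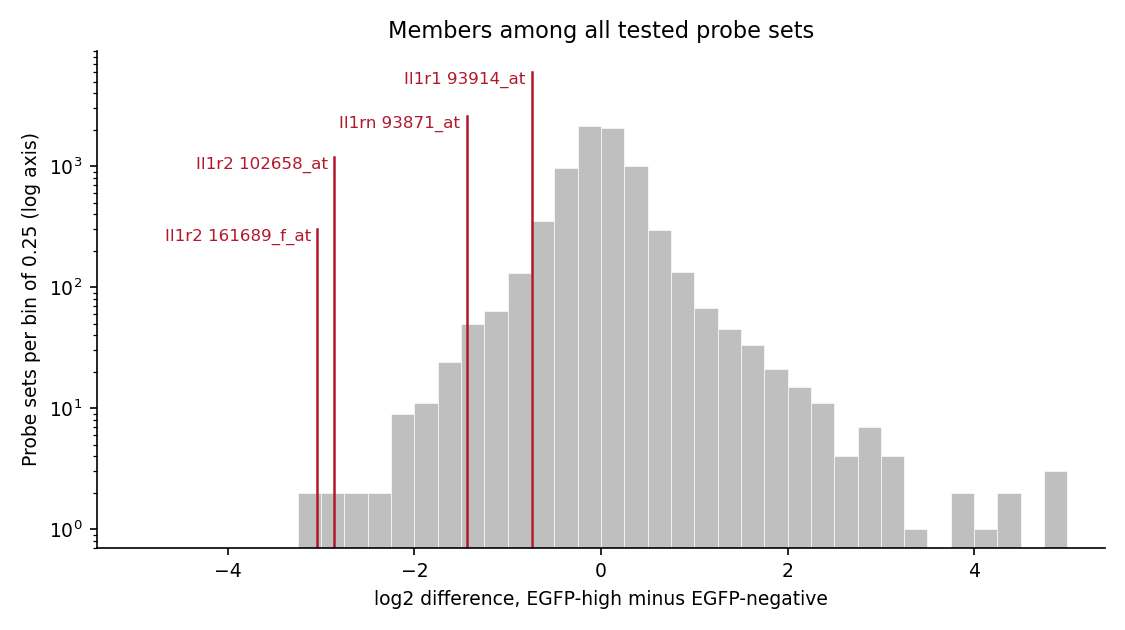
Number of tested probe sets (log axis) per bin of 0.25 in the log2 difference, EGFP-high minus EGFP-negative, with red lines at the 4 tested probe sets. Il1r2 lies at -3.04 and -2.86 in the sparse lower tail, Il1rn at -1.44 and Il1r1 at -0.74 nearer the bulk.

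Arrays with the same replicate number deviated together, as described under the processing, so the difference was also read within each number. For Il1r2 probe set 102658_at it was -2.27, -2.89 and -3.42 in numbers 1, 2 and 3, and for 161689_f_at -2.36, -3.27 and -3.48. For Il1rn it was -0.72, -1.91 and -1.69. For Il1r1 it was -0.15, -1.37 and -0.71. All 4 probe sets were lower in EGFP-high in every number, and for each of them number 1 had the smallest difference. With the replicate number as a block in the fit none of the 4 changed its side of the threshold.

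**Figure D3:**
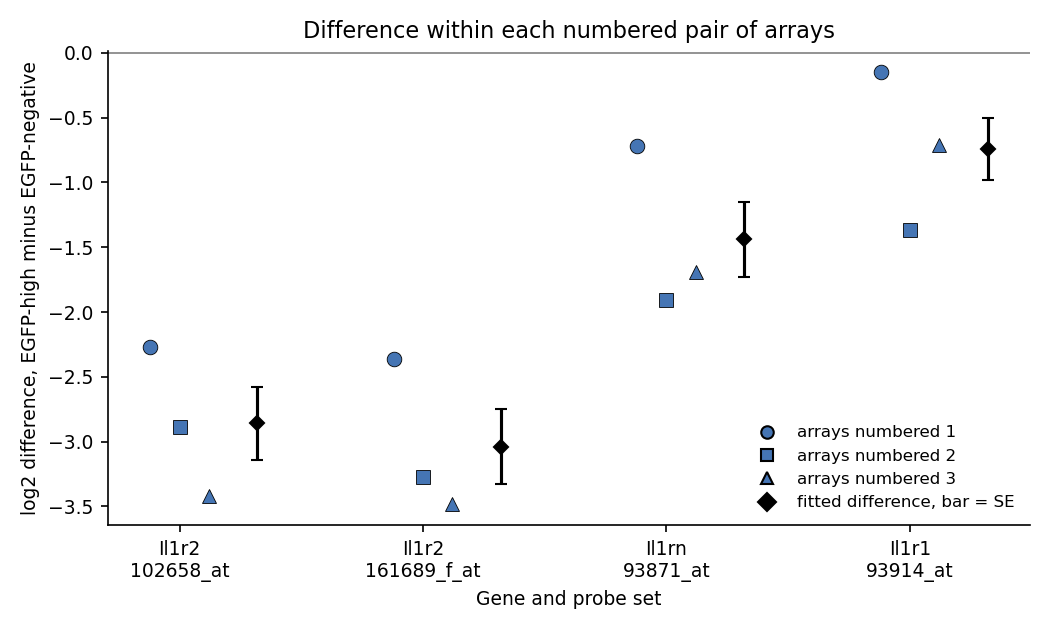
The log2 difference, EGFP-high minus EGFP-negative, of the 4 tested probe sets within each replicate number (blue symbols) and in the fit over all arrays (black diamonds, bar = SE). The pair of arrays numbered 1 is nearest to 0 in each case, at -2.27 and -2.36 for Il1r2, -0.72 for Il1rn and -0.15 for Il1r1.

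EGFP-high replicate 1 had the highest reading among EGFP-high arrays for all 4 probe sets, and some genes of differentiated epidermis moved with it. Of that layer's markers, Krt10, Krtdap and Krt1 had the highest mean intensity in EGFP-negative cells. Krt10 and Krt1 are suprabasal keratins, and Krtdap is a secreted protein of differentiating keratinocytes. Krt1 read 3468.1, 711.5 and 570.2 in EGFP-high and 5336.9, 2939.1 and 1824.5 in EGFP-negative cells. Over 10 measured markers of differentiated epidermis the summed intensity was 19693.1, 9748.4 and 5922.6 in EGFP-high replicates 1, 2 and 3, and 15673.4 to 23294.5 in EGFP-negative cells. Thus EGFP-high replicate 1 lay within the EGFP-negative range for this sum, and the other EGFP-high arrays lay below it. Krt10, Krt1 and Krtdap made up most of this sum on every array. Lor, Tgm3 and Dsc1 were also highest on replicate 1 among EGFP-high arrays. Sprr1b, Sprr1a, Flg and Ivl were not, and Sprr1b read 1559.4, 2106.6 and 1676.3 on EGFP-high replicates 1, 2 and 3.

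Krt10 read 8799.4, 4399.2 and 2423.9 against 9986.4, 8037.5 and 8705.3, and Krtdap 5040.9, 1757.9 and 647.9 against 5275.8, 3647.1 and 2258.9. In the limma fit 0 of the 8 tested markers of that list had an adjusted p under the threshold, all 8 had a difference below 0, and 1 had an unadjusted p under 0.05. On the array within the EGFP-negative range, Il1r2 (102658_at) read 176.4, and it read 870.7 to 924.9 in EGFP-negative cells. Without that array the Il1r2 differences were larger, at -3.19 and -3.42, and those of Il1rn and Il1r1 were -1.76 and -0.93. The part of differentiated cells in the members' differences was not tested. In sorted bulk samples, fewer cells of a type and less RNA per cell cannot be told apart.

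**Figure D4:**
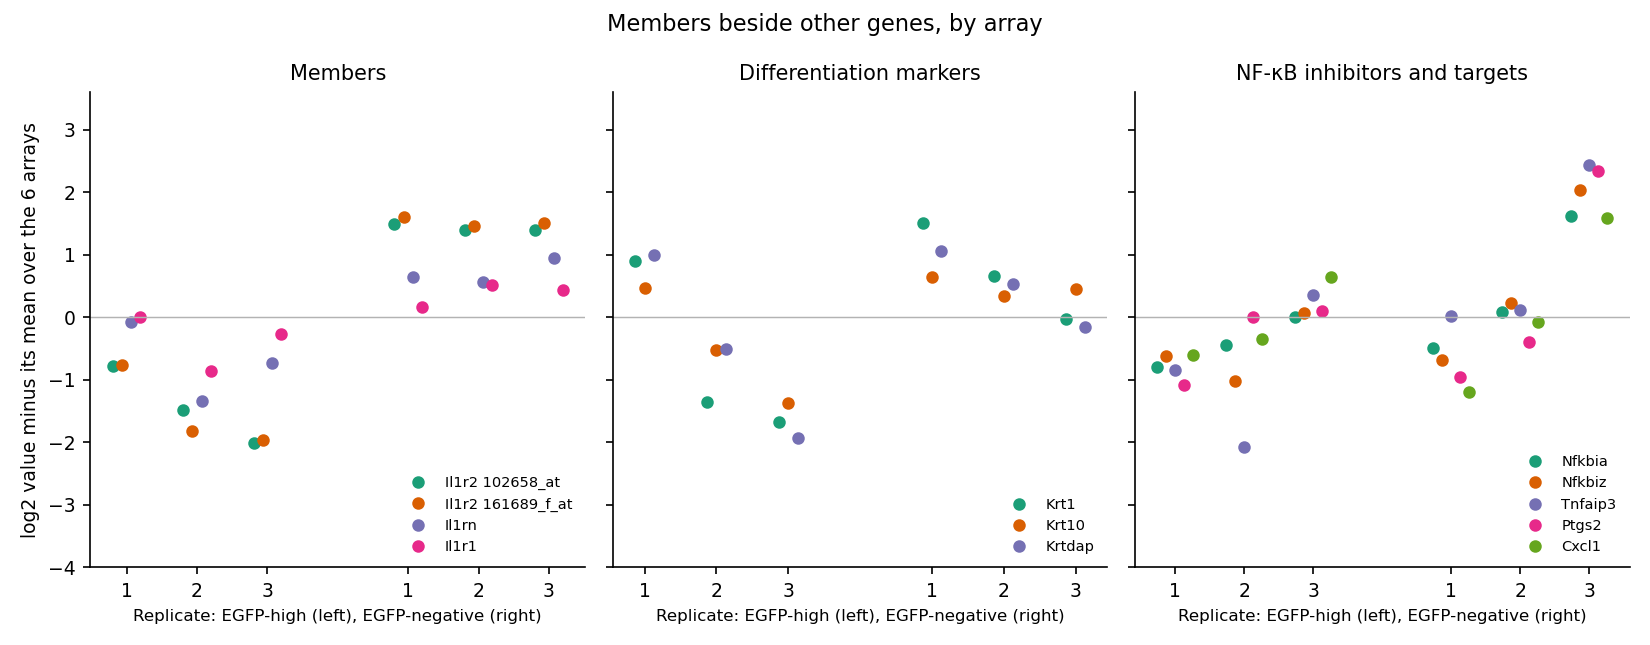
Log2 value of each probe set minus its mean over the 6 arrays, for the members (left), 3 markers of differentiated epidermis (middle) and 5 NF-κB inhibitors and targets (right), with EGFP-high replicates on the left and EGFP-negative replicates on the right of each panel. The Il1r2 points form a low and a high group, the differentiation markers of EGFP-high replicate 1 sit among the EGFP-negative arrays, and the NF-κB genes are highest on EGFP-negative replicate 3.

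Markers of other cells known to carry interleukin 1 receptors or ligands were read beside the members. The decoy receptor is known from neutrophils and macrophages. The summed intensity of 7 neutrophil markers was 592 to 876 in EGFP-high and 553 to 657 in EGFP-negative cells. Ltf, Ngp and Mmp8 were above the control 95th percentile on no array, and Camp, Elane and Csf3r on all. The sum of 12 Langerhans cell and macrophage markers was 953 to 1299.4 against 845 to 1049.5. Lyz2, Adgre1, Fcer1g, Tyrobp and Itgam were above that percentile on no array, and Cd74, H2-Eb1, Csf1r, Cd68 and Cd14 on all. Of these last, only Csf1r was higher in EGFP-high without overlap, at 71.4 ± 27.7 against 44.3 ± 5.01 (SD, n = 3 each). The sum of 7 leukocyte markers was 436 to 538 against 324 to 363. In these lists 0 of 3, 0 of 5 and 0 of 3 tested genes passed the threshold in limma, and 0, 0 and 2, the 2 being higher, had an unadjusted p under 0.05. The leukocyte sums were higher in EGFP-high without overlap, and the neutrophil and macrophage sums overlapped between the groups. The largest part of the leukocyte sum was Laptm5, at 246 ± 33.1 against 171 ± 50.4 (SD, n = 3 each). Laptm5, Cd52 and Lcp1 were above the control 95th percentile on all arrays, Ptprc and Coro1a on 1 each, and Cd53 and Cd48 on none. Coro1a was lower in EGFP-high without overlap, at 17.3, 18.1 and 14.4 against 69.8, 20.2 and 19.3.

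Among 7 T cell markers the sums overlapped, at 185 to 350 against 259 to 303. The only tested one, Thy1, a surface protein of T cells and other cells, fell (54.3 ± 33.6 against 175 ± 28 (SD, n = 3 each), log2 -1.51, SE 0.34, limma adjusted p = 0.0382). The other 6 were under the filter and not tested. Cd3e, of the T cell receptor complex, read 27.7, 28.7 and 135.4 in EGFP-high against 20.8, 19.5 and 21.7, above the control 95th percentile on 1 array. Of the same complex, Cd3g read 46.7, 62.8 and 65.3 against 48.4, 6.1 and 16.7, above it on 4 arrays. Cd3d read 18.6, 22.4 and 28.7 against 2.2, 7.2 and 7.6, without overlap and above it on 1 array. Il2rb was lower in EGFP-high with overlap, at 31.1 ± 13.9 against 39.5 ± 5.58 (SD, n = 3 each). Cd8a and Cd2 were above that percentile on no array. For fibroblasts, which carry Il1r1, 8 markers summed to 1826.5 to 2098.7 in EGFP-high against 1347.7 to 1612.5. Of 5 tested, 0 were lower past the threshold and 1 was higher, the matrix protein Fbln1 (745 ± 231 against 343 ± 56.9 (SD, n = 3 each), log2 1.04, SE 0.25, limma adjusted p = 0.0487). Fbln1 made up most of the gap between the mean sums. The median log2 difference of the 5 was -0.03, with 3 of them below 0. Col3a1 and Pdgfrb were above the control 95th percentile on no array. Mast cell markers summed to 298 to 390 against 277 to 364, and endothelial markers to 359 to 410 against 365 to 468, with 0 of 1 and 0 of 2 tested genes past the threshold in limma and 0 in either list with an unadjusted p under 0.05. The part of these cells in the members' differences was not tested.

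The other genes of the pathway were read from a list by role. Of 91 genes on a list of related family members, processing enzymes, signalling proteins, NF-κB factors and induced targets, 63 were on the array and 40 were tested. With each gene read by its brightest probe set, Capn2 alone was higher past the threshold and 0 were lower (limma, Benjamini-Hochberg), where 3.06% of tested named genes were higher and 2.27% lower. At an unadjusted p of 0.05, 2 of the 40 were higher and 7 lower, beside 490 and 510 of all 5628 named genes. The median log2 difference of the 40 was -0.20 beside 0.00 for all named genes, and 30 of the 40 were below 0, beside 2828 of 5628. Groups did not overlap for 8 of the 40, where 23.4% of tested named genes did not. With the replicate number as a block, 2 were higher, Capn2 and the kinase adaptor Tab2, and 1 was lower, Tnfaip3, where 5.29% of named genes were higher and 5.33% lower.

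Of the related receptors, the interleukin 18 receptor chains Il18r1 and Il18rap were measured, and of the related ligands and binding proteins Il1f5, an antagonist of the interleukin 36 receptor, and Il18bp, which binds interleukin 18. None of these 4 passed the filter. Il1f5 read 43.8, 22.5 and 24.0 in EGFP-high against 55.5, 72.6 and 58.8 in EGFP-negative cells, without overlap, and was above the control 95th percentile on 4 of 6 arrays.

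Among genes of processing and release, Capn2, a calpain, rose. Calpains are proteases known to cleave the interleukin 1α precursor. Capn2 read 109.5, 183.8 and 241.6 in EGFP-high against 9.0, 63.0 and 45.8 in EGFP-negative cells, with EGFP-negative replicate 1 at the control level. The log2 difference was 1.83 (SE 0.41, limma adjusted p = 0.0356, and 0.00176 to 0.153 over the alternatives), and it was higher in all 3 pairs. Its size depended on the pseudocount, from 1.13 with one 4 times as large to 2.27 with 25% of it. Leaving out 1 array ended the call for the arrays EGFP-high 2, EGFP-high 3 and EGFP-negative 3, at adjusted p of 0.123, 0.153 and 0.0665 in limma. The other Capn2 probe set read at the control level. The related Capn1 read 656 ± 153 against 830 ± 61.9 (SD, n = 3 each) and did not pass. Casp1, the protease that matures interleukin 1β and interleukin 18, read 67.9, 51.0 and 80.7 against 23.5, 19.7 and 47.0 without overlap (log2 0.82, SE 0.28, limma adjusted p = 0.151). Casp4, of the same list, was under the filter and not tested. It read lower in EGFP-high without overlap, at 26.0, 38.3 and 18.8 against 47.4, 55.9 and 52.8. Casp1 and Casp4 are named after their values were seen.

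None of the 19 tested adaptors and kinases passed the threshold in limma by its brightest probe set, and 2 had an unadjusted p under 0.05, both lower. Their median difference was -0.17. The 2 probe sets of Map2k6, a kinase upstream of p38, were nearly equal in brightness (mean log2 6.35 and 6.344) and disagreed. The slightly brighter one read 67.2, 62.3 and 35.4 in EGFP-high against 73.4, 68.2 and 74.7 in EGFP-negative cells (log2 -0.33, SE 0.23, limma adjusted p = 0.551). The other read 34.4, 52.9 and 29.4 against 76.2, 107.2 and 106.6 and was lower past the threshold (log2 -1.0, SE 0.23, limma adjusted p = 0.044), so the count of 0 lower rests on which probe set stands for this gene. Map2k6 is named after its values were seen. The brightest was the ubiquitin-conjugating enzyme Ube2n, at 463 ± 42.4 against 546 ± 68.4 (SD, n = 3 each). Myd88, the adaptor of the receptor, read 119 ± 26 against 157 ± 35.5, and the receptor-associated kinase Irak1 read 187 ± 56.1 against 170 ± 44.5. These values overlapped between the groups.

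Of 9 tested NF-κB factors and inhibitors 0 passed in limma, 4 had an unadjusted p under 0.05 and were lower, and the median was -0.59. Nfkb2, a subunit of the factor, read 121.2, 108.3 and 113.8 in EGFP-high against 164.9, 188.6 and 193.8 in EGFP-negative cells without overlap (log2 -0.59, SE 0.16, limma adjusted p = 0.0712). It passed in 1 alternative, with arrays scaled to the common median, at an adjusted p of 0.0478 in limma, and is named after its values were seen. Of 9 tested induced targets 0 passed, 1 had an unadjusted p under 0.05, which was lower, and the median was -0.20. The brightest was Ptges, a prostaglandin synthase, at 127 ± 36.5 against 198 ± 26.2 (SD, n = 3 each).

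**Figure D5:**
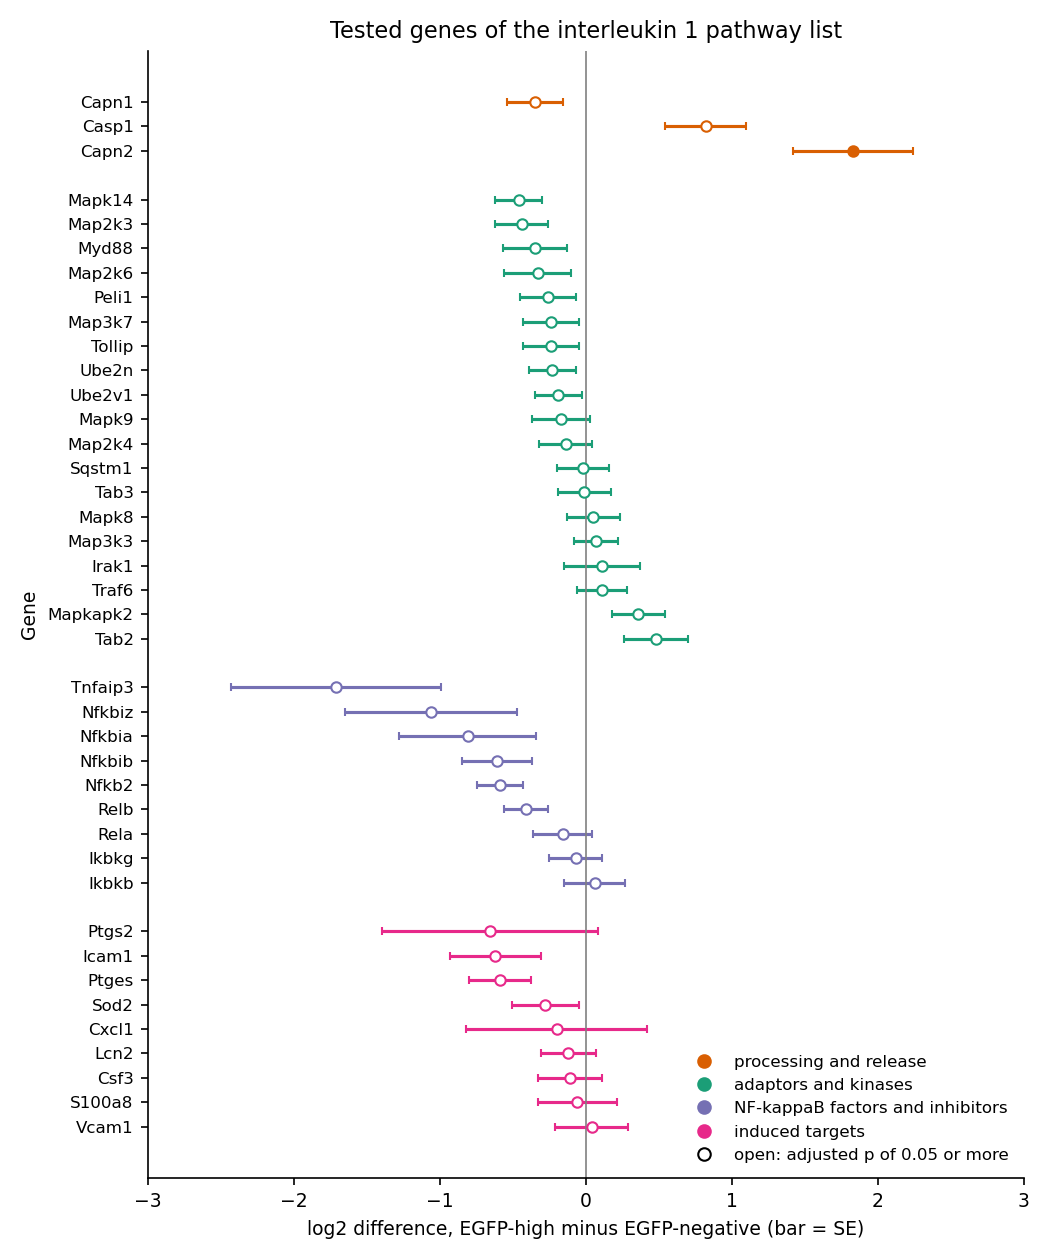
The log2 difference, EGFP-high minus EGFP-negative, of the 40 tested genes of the pathway list by role, each by its brightest probe set, with SE as bars; a filled point is past an adjusted p of 0.05. Capn2, at 1.83, is the only filled point, and Tnfaip3, Nfkbiz, Nfkbia, Ptgs2 and Cxcl1 have wide bars.

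Several rapidly induced genes of the pathway followed the replicate number, and were chosen after their values were seen. Nfkbia, the inhibitor that NF-κB itself induces, read 745.4, 953.3 and 1302.3 in EGFP-high and 920.7, 1377.4 and 4037.4 in EGFP-negative replicates 1, 2 and 3 (limma adjusted p = 0.443). Nfkbiz, an atypical inhibitor of the family, read 185.4, 135.8 and 308.5 against 177.1, 351.3 and 1275.4. Tnfaip3, an enzyme that shuts off NF-κB signalling, read 48.6, 9.6 and 136.0 against 103.9, 112.7 and 638.4. In all 3 genes the array numbered 3 was the highest of each group, and EGFP-negative replicate 3 was the highest of all.

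The prostaglandin synthase Ptgs2 and the chemokine Cxcl1 had the same order, with 97.2 and 161.6 on EGFP-high replicate 3 and 530.7 and 325.4 on EGFP-negative replicate 3. Among all tested named genes, 13.1% were highest on number 3 in both groups, and 10 of the 40 pathway genes were. Il1r2 did not follow this order, at 872.0 on EGFP-negative replicate 3 and 870.7 and 924.9 on the other EGFP-negative arrays. With the replicate block Tnfaip3 was lower past the threshold (log2 -1.71, SE 0.27, limma adjusted p = 0.00576), and without the block its SE was 0.72 and its adjusted p 0.268.

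The genes with a pattern most like the members were sought among named genes, each by its brightest probe set. Likeness was the root mean square difference of log2 values over the 6 arrays, each centred on its own mean, so a small value means a like rise and fall. Nearest to the Il1r2 probe set with the lowest difference were Serpinb2, an inhibitor of plasminogen activators, at 0.314, Klf5, a transcription factor of proliferating epithelium, at 0.489, Cpxm2 at 0.514, Phldb2 at 0.542 and Slc22a4, an organic cation transporter, at 0.581. Il1rn lay at 0.84 and Il1r1 at 1.193 from it, at ranks 35 and 204 among the tested named genes. Phldb2 and Slc22a4 were each above the control 95th percentile on 3 of the 6 arrays, and below it on every EGFP-high array. As with Il1r2, Serpinb2 was highest among EGFP-high arrays on replicate 1, at 746.1 against 237.5 and 302.7, and read 2300.0, 2519.5 and 2116.8 in EGFP-negative cells.

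Nearest to Il1r1 were Sowahc at 0.107, the Max-like protein Mlx at 0.136, Tes, a focal adhesion protein, at 0.142, the guidance factor Sema3c at 0.148 and the transcription factor Sox6 at 0.152. Il1rn lay at 0.399 from Il1r1, at rank 966 among the tested named genes, and Il1r2 (102658_at) at 1.124, at rank 5508. Of the 5 genes nearest to Il1r1, Sema3c alone was past the threshold, and read lower (180 ± 40.7 against 352 ± 15.2 (SD, n = 3 each), log2 -0.92, SE 0.18). Genes near Il1r2 or Il1r1 were picked for likeness to members selected on this comparison. Their differences and calls are therefore descriptions and support nothing further. These distances describe 6 arrays in 2 groups and carry no test.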

How the data were processed

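For each Affymetrix mouse array the authors deposited linear intensity values, 1 for every probe set. Which software and background correction made them is not given in the sources used here. With 2% of values trimmed from both ends, all 6 columns had a mean of 150.1, so they were already on a shared scale, which was kept. Precision is limited by having 3 arrays a group.

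Of 12488 rows, 66 controls were left out, and 10833 of the other 12422 probe sets carried 1 symbol in the platform annotation (396 several, 1193 none listed). Symbols were looked up by Entrez identifier in RefSeq's GRCm38.p6 gene table, which matched 10817 and changed 0.

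Values were analysed as log2(intensity + 19.3), 19.3 being the 25th percentile of values above 0. Probe sets with a mean above the 40th percentile (an intensity near 44.5) were tested with limma 3.58.1 in R 4.3.3 (lmFit, eBayes with an intensity trend, 4 residual and 4.96 prior degrees of freedom), two-sided, with Benjamini-Hochberg adjustment over all 7453 and a threshold of 0.05. The procedure was tested on simulated data. A gene was its brightest probe set.

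Same-numbered arrays deviated together (r = 0.336, 0.368 and 0.305 across probe sets, each above the limit of 0.1), so the titles' numbers were taken to pair the samples, which the labels do not state. The fit was made without this block, and blocked values are given where a call or count changed.

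The members, lists and tests were chosen with earlier results of these data known. Named were all member probe sets, the called pathway genes and the brightest uncalled gene of each role. Also named were the 3 differentiation markers with the highest EGFP-negative mean, and the 5 genes nearest in pattern to the tested members with the lowest and highest difference. Alternatives varied the pseudocount, filter, scaling, trend, block and arrays.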

Additional observations from a re-analysis of the deposited data

How the results depend on the processing

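Both Il1r2 probe sets were past the threshold and lower in EGFP-high under every alternative run (log2 -2.38 to -3.19 and -2.41 to -3.42), and Il1r1 was lower and not past it in all of them (-0.50 to -0.93). As these genes were selected on this same comparison, their calls support nothing further here either. Il1rn was lower throughout (-1.1 to -1.76). It lost its call only in 5 of the runs that left out 1 array, where its difference ranged from -1.13 to -1.51. Without EGFP-high replicate 1 it kept the call, at -1.76. The cause of the lost calls was not tested. Il1rap, near the control level, moved with the low-value treatment, to -0.25 with values under 20 raised to 20.

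The replicate block raised the probe sets past the threshold from 225 to 382 higher and from 162 to 396 lower. Leaving out 1 array gave 106 to 265 higher and 85 to 234 lower, the lowest with EGFP-high array 3 left out; with EGFP-high array 2 left out they were 132 and 93, and with EGFP-negative array 3 left out 97 were lower. Of the pathway genes, the block gave 2 higher and 1 lower, a pseudocount 25% as large and a filter at the 60th percentile each gave 0 higher, and scaling to the common median gave 1 lower, Nfkb2. The count higher was 0 to 1 and the count lower 0 to 0 with 1 array left out. Without a filter Capn2 lost its call (adjusted p = 0.0797 in limma) and the 1 gene higher was Ccl7, at 17.8 against 3.13 and under the control 95th percentile on every array.

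With 3 arrays per group, genes near the control level, among them all 3 ligands, cannot be compared.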
